A study of Mus musculus with 8 samples.

Results

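The gastrokines Gkn1, Gkn2 and Gkn3 and the trefoil factors Tff1, Tff2 and Tff3 are 6 genes for small secreted proteins of the mucous lining of the gut. They were taken by family: the rows whose mouse gene numbers (66283, 66284, 68888, 21784, 21785 and 21786, in that order) carry these symbols. All 6 were found among the 38920 rows of each table, and all 6 passed the filter on low values that left 27401 rows for testing. The study measured RNA of sorted stomach epithelial cells of C57BL/6 mice: 4 libraries came from animals on a high fat diet (HFD 22, 23, 26 and 27) and 4 from controls (titled ND; 15-17-18, 16, 19 and 20). Control 15-17-18 carries 3 numbers in its title, and whether it was pooled is not stated. Neither age, sex and feeding time nor the diets' composition and the sorting markers are given in the labels used here. Whether a library stands for 1 mouse is not stated either, so p-values measure the spread between these libraries, which may be technical.

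Gastrokines are secreted proteins with a BRICHOS domain, a fold shared with several membrane-bound precursor proteins. Gkn1 and Gkn2 are made by the surface pit cells that line the stomach, while mouse Gkn3 is known from mucous neck cells deeper in the gland. Trefoil factors carry a compact, disulfide-held trefoil domain, resist digestion, bind mucins and help the epithelium close over injuries. Tff1 is the pit cell trefoil factor, and its protein forms a heterodimer with that of Gkn2. Tff2, once called spasmolytic polypeptide, is made by neck cells, and Tff3 by intestinal goblet cells.

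Sequencing depth, estimated from the worth of 1 read in the low values, was 31.4 to 46.0 M reads in HFD and 16.4 to 63.2 M in control libraries. The deposited values share a common total. In control 15-17-18 the 20 most abundant rows took 85.7% of that total, against 27.8% to 59.1% in the other 7 libraries. As deposited, the median tested row was 0.90 higher in HFD on the log2 scale. Libraries were therefore put on a common scale through the median of their row-wise ratios to the mean library, a factor of 0.176 for control 15-17-18 and 0.677 to 1.37 for the rest, after which the median row differed by 0.12. A level below is log2(value + 1) on this scale, and a difference is HFD minus control on the same scale. Epithelial markers (Epcam, Cdh1, Krt8, Krt18, Krt19 and Cldn18) were detected in every library. Their summed level was 17.11 to 17.46 in HFD and 17.13 to 17.58 in control, but 2 of them separated the groups in opposite directions, Epcam by 0.68 ± 0.14 and Cdh1 by -0.43 ± 0.12 (SE; limma adjusted p = 0.20 and 0.28). Of all tested rows, 4.72% had every HFD library above every control and 3.12% had every HFD library below.

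The gastrokine genes lie side by side on mouse chromosome 6 (build GRCm38.p6, the assembly also called mm10). Gkn1 spans 87345653 to 87350915 on the minus strand, Gkn2 87373365 to 87379494 on the plus strand and Gkn3 87383319 to 87388935 on the minus strand, each with 6 exons. Gkn2 and Gkn3 end 3824 bases apart, tail to tail, and 22449 bases separate Gkn1 from Gkn2. The trefoil factor genes form a cluster on chromosome 17, all on the minus strand: Tff3 at 31125306 to 31129611, Tff2 at 31141062 to 31144282 and Tff1 at 31161395 to 31165060, with 3, 4 and 3 exons. No transcript of a gastrokine, Tff2 or Tff3 shared a run of 30 bases with an annotated transcript of another gene, and Tff1 shared such runs with Zfp384 only. An antisense gene, Gm15318, overlaps Tff1, and no source used here says whether the authors' counting used strand.

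The RefSeq promoter table of GRCm38.p6 held 3 of the 6 members, Gkn1, Gkn2 and Gkn3, and not Tff1, Tff2 and Tff3. For these 3 genes the 250 bases before each start are shown, and their part in the levels or ratios was not tested. They are chr6:87350916-87351165 (minus strand), chr6:87373115-87373364 (plus strand) and chr6:87388936-87389185 (minus strand), read 5′ to 3′ along the gene. Capitals mark GATAA, the core bound by GATA factors, on either strand, and TATAAA.
Gkn1: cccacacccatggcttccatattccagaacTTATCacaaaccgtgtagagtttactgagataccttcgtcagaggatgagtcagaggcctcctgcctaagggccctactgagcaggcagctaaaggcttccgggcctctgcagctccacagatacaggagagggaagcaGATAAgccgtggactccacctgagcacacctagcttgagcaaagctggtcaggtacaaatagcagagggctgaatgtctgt
Gkn2: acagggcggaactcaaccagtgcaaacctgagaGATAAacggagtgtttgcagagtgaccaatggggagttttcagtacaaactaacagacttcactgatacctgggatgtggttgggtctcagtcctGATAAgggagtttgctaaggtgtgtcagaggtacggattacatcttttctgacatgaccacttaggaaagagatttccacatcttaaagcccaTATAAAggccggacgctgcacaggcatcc
Gkn3: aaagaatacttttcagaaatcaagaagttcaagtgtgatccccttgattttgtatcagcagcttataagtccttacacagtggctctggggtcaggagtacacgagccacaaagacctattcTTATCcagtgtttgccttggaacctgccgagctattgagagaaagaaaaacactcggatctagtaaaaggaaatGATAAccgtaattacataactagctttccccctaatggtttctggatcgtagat
GATAA was found at 2 places in each of the 3 windows. The first bases of these matches lie 220 and 81 bases before the start in Gkn1, 217 and 122 in Gkn2, and 128 and 54 in Gkn3. Of 32851 promoter windows of this length, 22.6% held the motif on either strand and 4.28% held it at 2 or more places. TATAAA was found in Gkn2 alone, 29 bases before the start, and occurs in 12.4% of windows. The forkhead sequence TGTTTGC was found in Gkn2, 206 bases before the start, and in Gkn3, 120 bases before it, against 4.3% of windows. CCAAT was found in Gkn2 alone, against 33.8% of windows. The motifs were chosen with these sequences in view, none overlaps another in these windows, and a match of letters is not evidence of binding.

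Of the 6 members, 4 were among the abundant RNAs of these cells, Gkn3 was moderate and Tff3 was close to the floor. Most values under 5 steps, 65.4% to 81.5% by library, were whole multiples (within 0.01) of 1 step per library. Genes with transcripts under 1 kb (63.0% to 79.7%) and over 5 kb (73.1% to 94.6%) shared that step, so the values were taken as not divided by length. Levels were therefore compared between genes per kilobase of coding sequence, an order that rests on this reading. On that scale Gkn1 stood at 19.17 ± 0.45 (log2, SD, n = 8 libraries) and was the highest member in all 8 libraries. Tff2 at 18.14 ± 0.51, Tff1 at 18.11 ± 0.46 and Gkn2 at 18.04 ± 0.40 (log2 per kilobase of coding sequence, SD, n = 8) lay within their spread and changed places from library to library. Gkn3 followed at 10.86 ± 0.90 and Tff3 was last at 5.86 ± 2.44 (SD, n = 8), in that order in all 8 libraries. Per kilobase of transcript, Gkn1 stood at 17.99 ± 0.45, Tff2 at 17.54 ± 0.51 and Gkn2 at 17.52 ± 0.40 (log2, SD, n = 8). Within libraries Gkn1 stayed above Gkn2 in all 8, most narrowly in HFD 23 (17.56 and 17.43). Tff2 then stood above Gkn1 in HFD 23, control 19 and control 20. Gkn1 alone took 0.738% to 1.39% of the deposited total in HFD and 0.138% to 2.21% in control libraries.

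The design asks whether these genes differ between mice on the high fat diet and controls. By limma, 0 of the 6 members passed an adjusted p of 0.05, where 0.0109% of all tested rows did (3 of 27401; 0.00365% higher and 0.0073% lower in HFD). As deposited it was again 0 of 6, against 0.0584% of rows. The count of 3 rows was 0 without control 19 or without control 20, and 1 without HFD 22. At an unadjusted p under 0.05 there was 1 member, Gkn3, where 10.5% of tested rows were under that value. In 4 members the difference was positive and in 2 negative, with a median of 0.09. Over all tested rows the median was 0.12 and 59.9% were positive. As deposited all 6 members were positive, so the signs for Gkn1 and Tff1 depend on the scaling. All members but Gkn1 have transcripts under 1 kb. After scaling, the median difference was 0.319 in 299 genes under 1 kb, 0.056 in 6138 of 1 to 5 kb and -0.151 in 2167 over 5 kb. In 0 of 6 members did all HFD libraries lie on one side of all controls, which 4.72% of rows did upward and 3.12% downward. In sorted bulk cells a change in the number of cells of a type and a change in RNA per cell cannot be told apart.

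**Figure D1:**
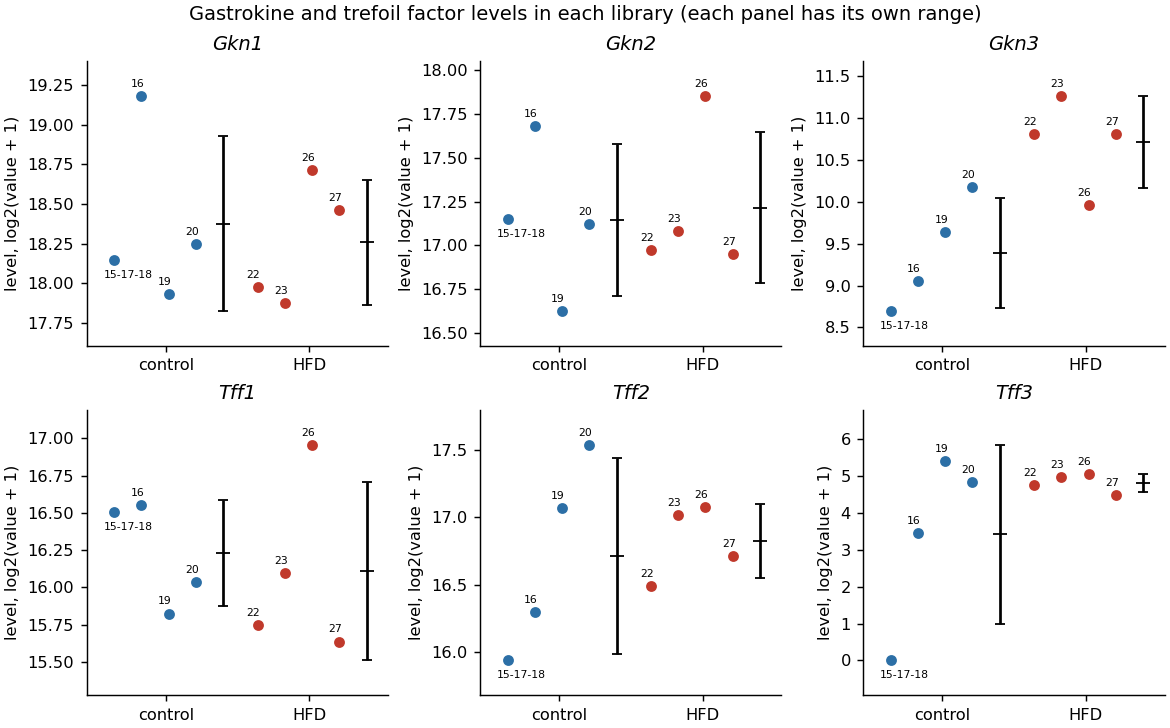
Level of each member, log2(value + 1) after median-ratio scaling, in each control (blue) and HFD (red) library, labelled by number; bars give the mean and SD of 4 libraries. Groups overlap in every panel, Gkn3 has the clearest offset (9.96 to 11.27 in HFD, 8.69 to 10.18 in control), and Tff3 is listed at 0 in control 15-17-18.

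Gkn1 encodes the most abundant gastrokine. Its level was 17.97, 17.88, 18.71 and 18.46 in HFD 22, 23, 26 and 27, and 18.14, 19.18, 17.93 and 18.25 in control 15-17-18, 16, 19 and 20. Control 16 was the highest of the 8 libraries and the other 7 lay together, with the groups overlapping. The difference was -0.12 ± 0.29 (SE; 95% confidence interval -0.76 to 0.53; limma adjusted p = 0.89). It was 0.15 without control 16 and 0.01 without HFD 23.

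Gkn2, the partner of Tff1 in the heterodimer, stood at 16.98, 17.08, 17.85 and 16.95 in HFD 22, 23, 26 and 27. In control 15-17-18, 16, 19 and 20 it stood at 17.15, 17.68, 16.62 and 17.12. HFD 26 and control 16 were the 2 highest libraries, 1 in each group. The difference was 0.07 ± 0.26 (SE; 95% confidence interval -0.51 to 0.65; limma adjusted p = 0.93). It was -0.14 without HFD 26 and -0.10 without control 19.

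Tff1, the trefoil factor of pit cells, stood at 15.75, 16.10, 16.96 and 15.64 in HFD 22, 23, 26 and 27, and at 16.51, 16.55, 15.83 and 16.04 in the controls in the order above. HFD libraries held both the highest and the lowest values. The difference was -0.12 ± 0.29 (SE; 95% confidence interval -0.79 to 0.54; limma adjusted p = 0.89). It was 0.04 without HFD 27. For Gkn1, Gkn2 and Tff1 the intervals reach 0.79 at most in either direction on this scale, and are wider on the deposited scale, where that of Gkn1 runs from -0.80 to 2.28.

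Tff2, the neck cell trefoil factor, stood at 16.49, 17.02, 17.08 and 16.71 in HFD 22, 23, 26 and 27. In control 15-17-18, 16, 19 and 20 it stood at 15.94, 16.30, 17.07 and 17.54, so that the controls enclosed the HFD libraries on both sides. The difference was 0.11 ± 0.33 (SE; 95% confidence interval -0.64 to 0.86; limma adjusted p = 0.91). It was -0.175 without control 15-17-18 and -0.03 without control 16.

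Gkn3, the neck cell gastrokine, had the largest difference among the 5 members detected in every library. It stood at 10.81, 11.27, 9.96 and 10.81 in HFD 22, 23, 26 and 27, and at 8.69, 9.05, 9.65 and 10.18 in control 15-17-18, 16, 19 and 20. HFD 22, 23 and 27 lay above all controls, and HFD 26 lay just under control 20. These levels rest on an estimated 1488 to 2559 reads in HFD and 105 to 1986 in control libraries. The difference was 1.32 ± 0.36 (SE), 2.50-fold, with a 95% confidence interval of 0.50 to 2.14 that is not adjusted for the rows tested. It did not pass after adjustment over all rows (limma adjusted p = 0.27), and 1.97% of tested rows had a smaller p than its unadjusted value. Over the 18 alternative settings the difference stayed between 0.88 and 2.18, with adjusted p between 0.21 and 0.58. On the deposited scale the groups did not overlap (10.22 to 11.56 in HFD, 6.18 to 10.18 in control), as in 7.82% of rows in that direction, and the difference of 2.18 was set against a median row at 0.90.

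Tff3, the goblet cell trefoil factor, was the lowest member. Its level was 4.75, 4.97, 5.04 and 4.48 in HFD 22, 23, 26 and 27, from an estimated 25 to 48 reads. In control 16, 19 and 20 it was 3.46, 5.41 and 4.82, from an estimated 12 to 47 reads, and it was listed at 0 in control 15-17-18. Controls 19 and 16 lay on either side of all HFD libraries. The difference was 1.39 ± 1.08 (SE; 95% confidence interval -1.04 to 3.82; limma adjusted p = 0.66), and 0.22 without control 15-17-18. In that library 1 read is worth 0.692 and would be listed at 0, and after scaling it would stand at a level of 2.31. With the 0 set instead at the level of 3 reads, 3.68, the difference was 0.467. That setting lies above what a listed 0 can stand for there.

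**Figure D2:**
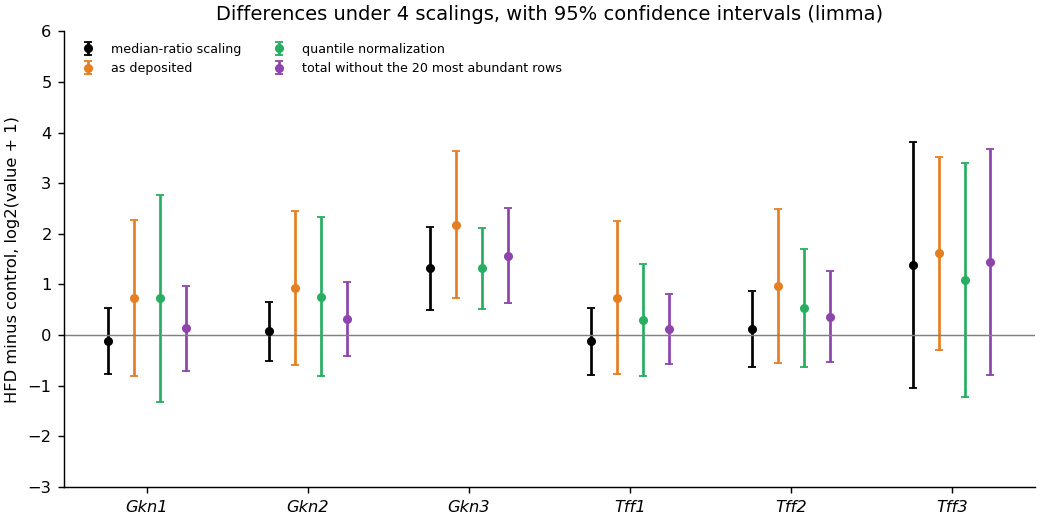
HFD minus control difference of each member on the log2(value + 1) scale under 4 scalings, with 95% confidence intervals from limma. Intervals for Gkn1, Gkn2, Tff1, Tff2 and Tff3 include 0 under each scaling shown, while Gkn3 lies between 1.32 and 2.18. The intervals are not adjusted for the rows tested, and the limma adjusted p of Gkn3 was 0.25 to 0.42 under these scalings.

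A ratio of 2 genes within a library does not move with the library's scaling. Across the 15 pairs of members, the ratio of Gkn2 to Tff1 varied least, with an SD of 0.22 on the log2 scale over the 8 libraries, and the ratio of Gkn1 to Gkn2 came next with 0.28. Each of these genes alone varied by 0.40 to 0.46 (SD, log2, n = 8). Gkn2 and Tff1 lie on different chromosomes. The log2 ratio of Gkn3 to its neighbour Gkn2 had an SD of 1.09.

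**Figure D3:**
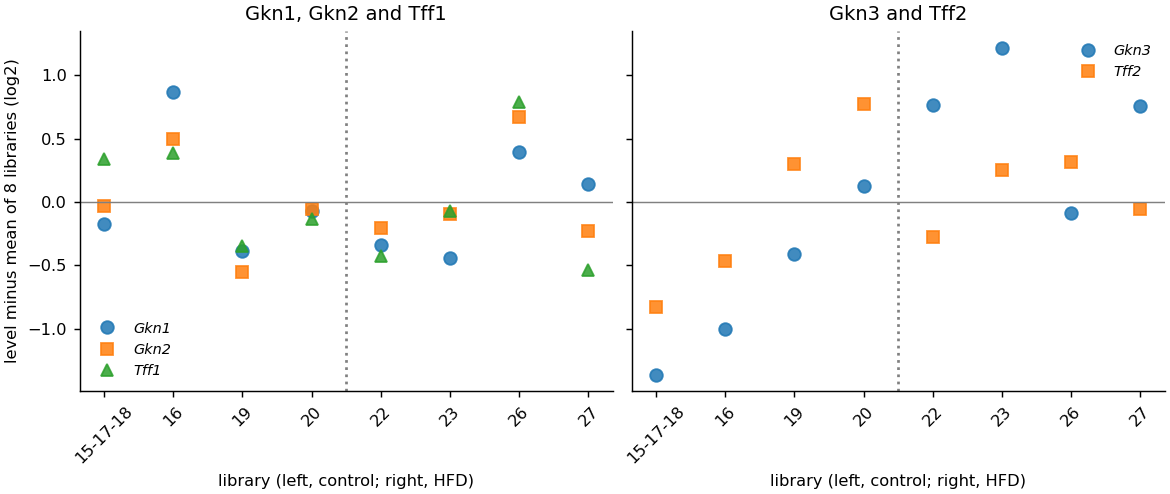
Level of each member except Tff3, which is not drawn, minus its mean over the 8 libraries (log2), controls left and HFD right of the dotted line. Gkn1, Gkn2 and Tff1 are high together in control 16 and HFD 26, while Gkn3 and Tff2 rank the controls alike and part in HFD 22, 23 and 27.

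In all, 6 ratios were compared by exact permutation (two-sided, all 70 divisions of the libraries). The lowest p this allows is 0.0286. The ratio of Gkn3 to Tff2, both of neck cells, was tight in controls, at -7.24, -7.25, -7.42 and -7.36 in control 15-17-18, 16, 19 and 20. In HFD 22, 23, 26 and 27 it was -5.67, -5.75, -7.12 and -5.90. All 4 HFD libraries lay above all 4 controls, HFD 26 by 0.13 from the nearest control and the others by more than 1. The HFD mean was -6.11 ± 0.68 and the control mean -7.32 ± 0.09 (SD over 4 libraries), a difference of 1.21 (exact permutation p = 0.0286, Benjamini-Hochberg adjusted over the 6 ratios 0.0571).

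The ratios of pit cell peptides to Muc5ac, the gel-forming mucin of the same cells, also separated the groups. Tff1 to Muc5ac was -0.09, 0.25, 1.16 and -0.55 in HFD 22, 23, 26 and 27 and -2.03, -1.20, -0.89 and -1.08 in control 15-17-18, 16, 19 and 20 (log2). Gkn1 to Muc5ac was 2.14, 2.03, 2.91 and 2.27 in HFD and -0.40, 1.43, 1.22 and 1.13 in control, in the same orders (log2). Higher values in every HFD library gave differences of 1.49 each (exact permutation p = 0.0286 each, adjusted 0.0571). Without control 15-17-18 the differences were 1.25 for Tff1 and 1.08 for Gkn1.

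Beside these ratios, Muc5ac itself stood at 15.80 to 16.19 in HFD and 16.71 to 18.54 in control. Its difference was -1.61 ± 0.35 (SE; limma adjusted p = 0.20), and it was negative as deposited too, at -0.75. Muc5ac thus separated the groups by itself, as 3.12% of tested rows did in that direction, while Gkn1 and Tff1 differed by -0.12 each. Both mucin ratios share Muc5ac, so they are not independent results. How many other genes separate the groups when set over Muc5ac was not counted. The Muc5ac transcript is 10752 bases long, and those of the members are 493 to 1250. Libraries also differed by transcript length. The median level of 299 genes under 1 kb minus that of 2167 genes over 5 kb was taken after centring each gene. It was 0.06 to 0.56 in HFD (mean 0.236) and -0.66 to 0.07 in control (mean -0.24). The groups overlapped only in that control 20, at 0.0674, stood just above HFD 27, at 0.0624. This length contrast was highest in HFD 26 and lowest in control 15-17-18. Its part in the mucin ratios was not tested. Gkn3 and Tff2 transcripts, 856 and 584 bases, are both in the short class, and the part of length in their ratio was not tested either.

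The other ratios did not separate the groups. Gkn2 to Tff1 was 1.11 ± 0.20 in HFD and 0.91 ± 0.23 in control, and Gkn1 to Gkn2 was 1.04 ± 0.32 and 1.23 ± 0.22 (log2, SD, n = 4 each). Tff2 to Muc6, the neck cell mucin that Tff2 binds, was 2.56 ± 0.95 in HFD against 2.18 ± 1.51 (SD over 4 libraries). Their exact permutation p was 0.286, 0.4 and 0.771. Control 15-17-18 had the lowest ratio of Tff2 to Muc6, at -0.06, and without it the difference of 0.38 became -0.37. Without HFD 26 it was -0.008.

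**Figure D4:**
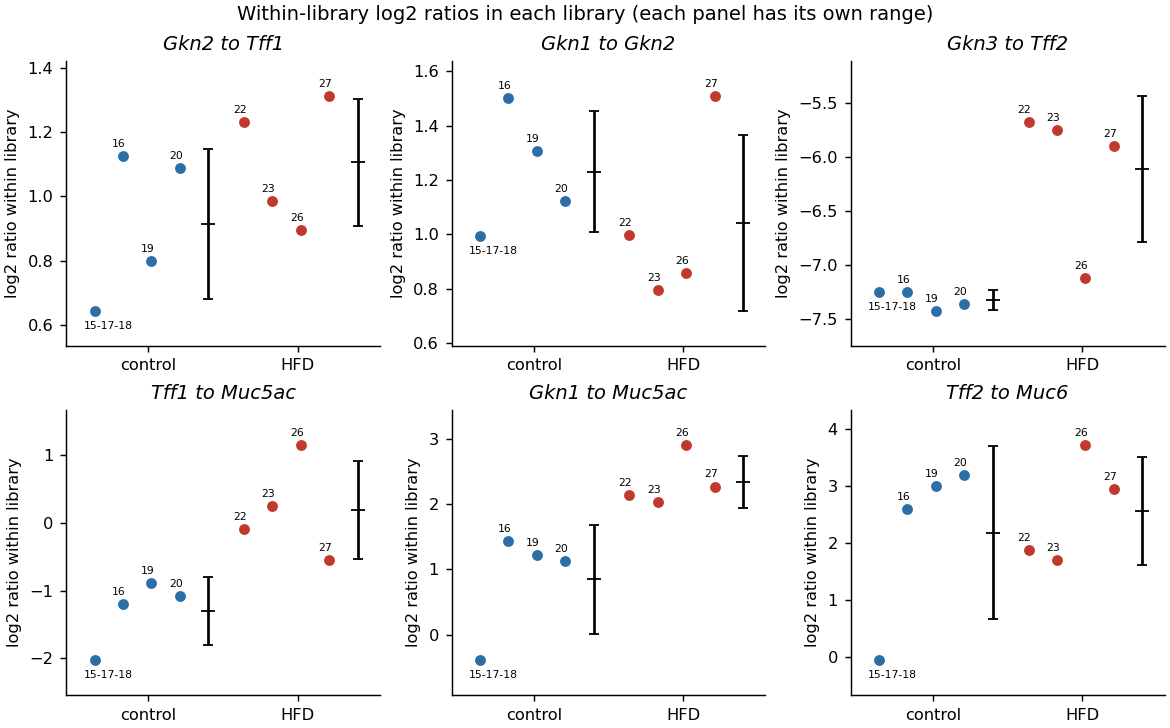
Log2 ratio of 2 genes within each library, control (blue) and HFD (red), with the mean and SD of 4 libraries. Groups are apart for Gkn3 to Tff2, Tff1 to Muc5ac and Gkn1 to Muc5ac, and overlap for the other 3 ratios.

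Of 12 surface pit cell markers 0 were called in either direction by limma, with 2 at an unadjusted p under 0.05. Their differences were positive in 3 and negative in 9, with a median of -0.31, and the median was 0.54 as deposited. Their summed level was 17.55 to 17.82 in HFD and 17.87 to 19.11 in control. Muc5ac is part of that sum, at 15.80 to 16.19 in HFD and 16.71 to 18.54 in control. The sum without Muc5ac was not taken, so the gap does not describe the other markers. Muc5ac was the only 1 of the 12 to separate the groups by itself, lower in HFD, as 3.12% of all tested rows did. The pit cell transcription factor Foxq1 stood at 12.07 ± 0.14 and 12.37 ± 0.58, and Psca at 15.24 ± 0.33 and 15.28 ± 0.23, in HFD and control (SD, n = 4). Of 6 neck cell markers 0 were called, 4 differences were positive and 2 negative, with a median of 0.46 and 2 at an unadjusted p under 0.05. The enzyme gene A4gnt, which caps neck cell mucin, differed by 0.54 ± 0.21, Wfdc2 by 0.76 ± 0.24, Aqp5 by 0.38 ± 0.41, Glipr1 by 1.81 ± 1.11, Muc6 by -0.27 ± 0.60 and Cd44 by -1.95 ± 1.01 (SE). Gkn3 shares its direction with the first 4 of these, and 59.9% of all tested rows had that direction too. Of the 8 goblet and intestinal markers tested 0 were called, and 1 was as deposited. Their differences were positive in 7 and negative in 1, with a median of 1.35 and 3 at an unadjusted p under 0.05; Muc2 was not analysed here. Spink4, a goblet cell peptide gene, stood at 10.04 ± 0.45 in HFD and 8.66 ± 0.41 in control (SD, n = 4; limma adjusted p = 0.17). It was the only 1 of the 8 with all HFD libraries above all controls, as in 4.72% of all tested rows. The largest difference was that of Zg16, 3.32 ± 1.17, which was listed at 0 in 1 library, and the negative one was that of Cdx2, -0.75 ± 1.14 (SE). Fcgbp, a mucus protein that binds Tff3, stood at 10.95 ± 2.01 in HFD and 8.22 ± 1.54 in control (SD, n = 4).

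Some markers of other cells stood higher in HFD, as Gkn3 did, and their part in its difference was not tested. Summed pancreatic acinar markers, all 9 tested, were 17.02 to 17.73 in HFD and 15.72 to 16.92 in control. Clps, at 17.39 ± 0.31 and 16.09 ± 0.52 (SD, n = 4), makes up most of that sum, and of the 9 differences 6 were positive and 3 negative (Cpa1, Cela2a and Cel). Summed smooth muscle markers, all 6 tested and all 6 with positive differences, were 11.57 to 12.24 in HFD and 8.93 to 10.98 in control. Chief cell markers (4 tested, 4 positive) summed to 21.22 to 21.60 and 20.23 to 21.34, and forestomach squamous markers (9 tested, 8 positive) to 11.59 to 12.82 and 7.92 to 11.69. Parietal markers (5 tested, 0 positive) summed to 17.12 to 17.81 in HFD and 17.12 to 17.99 in control. Among acinar markers Cpa1, Prss2 and Pnlip were listed at 0 in some libraries, as was Lor among squamous markers. Mean levels in HFD and control were low for Cpa1 (0.73 and 1.03), Prss2 (4.64 and 2.53), Pnlip (4.67 and 2.63) and Cela2a (5.15 and 5.36).

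The genes around these peptides were mostly not called. Of 16 transcription factors of the gastric mucous lineages 1 was called lower and 0 higher. Their differences were positive in 4 and negative in 12, with a median of -0.22 that was 0.64 as deposited. The factor called was Klf4, a factor of differentiating epithelium, which fell by 1.42 ± 0.12 (SE; limma adjusted p = 0.0069), and by 0.56 as deposited, where it was not called. It was not called without control 19 or without control 20 either. Gata4 and Gata6, which act in gastric epithelium, stood at 13.05 ± 0.06 and 11.47 ± 0.10 in HFD and 13.29 ± 0.16 and 11.74 ± 0.27 in control (SD, n = 4), with adjusted p = 0.47 and 0.53 by limma. Their differences of -0.24 and -0.27 became 0.62 and 0.59 as deposited. After scaling, 2 of the 16 factors, Klf4 and Gata4, had all HFD libraries below all controls, as in 3.12% of tested rows. Gata4 stood at 12.98 to 13.11 in HFD and 13.16 to 13.52 in control. Among 8 candidate receptors 0 were called, with a median of 0.31. Ackr3, a chemokine receptor proposed to bind trefoil factors, stood at 6.37 ± 0.16 in HFD and 5.09 ± 0.86 in control (SD, n = 4; limma adjusted p = 0.37), and Cxcr4 at 4.91 ± 0.74 and 4.80 ± 0.63. All 4 HFD libraries lay above the controls for Ackr3, as in the 4.72% of rows given above. For Egfr, the epidermal growth factor receptor gene, all 4 lay below them, as in 3.12% of rows, at 9.78 to 9.90 against 9.99 to 10.33 (-0.40 ± 0.11, SE; limma adjusted p = 0.28), and as deposited its difference was 0.46.

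The tested rows most like each member were taken by the root mean square distance between centred levels over the 8 libraries, among 9689 named genes that do not include the members, whose distances are given apart. For Gkn3 they were Pnliprp2, a pancreatic lipase-related gene, at 0.277, Gm6392 at 0.312 and Bpifb1, a secreted protein of mucous epithelia, at 0.337, where the median gene lay at 0.860. Bpifb1 stood at 12.30 to 13.26 in HFD and 11.16 to 12.30 in control. For Gkn2 they were the glutathione transferase genes Gsta1 (0.138) and Gsta4 (0.197) and the predicted gene Gm3776 (0.165). Tff1 lay at 0.210 from Gkn2, and among genes that are no members those most like Tff1 were Gm3776 (0.189), Gm10639 (0.195) and Gsta1 (0.212). For Gkn1 they were the cell cycle inhibitor gene Cdkn1a (0.159), the kinase gene Sgk1 (0.167) and Chpt1 (0.178), with Gkn2 at 0.259. For Tff2 they were Csrp2 (0.109), Gm6252 and Psme1 (0.126 each), while Gkn3 lay at 0.736 and the median gene at 0.527.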

How the data were processed

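RNA of sorted gastric epithelial cells was sequenced as rRNA-depleted total RNA with the Ion Total RNA-Seq Kit v2, per the labels' protocols. The submitters' processing notes name the build mm10 and bedtools 2.17.0; no source used here gives the aligner or the normalization. The values deposited by the authors are log2 values floored at 0 whose antilogs share a common total. Depth was estimated from the steps between low values. Between 22.9% and 34.9% of values below 2000 steps per library were whole multiples within 0.01, so no count model was used. A value of 1 read falls under the floor in 4 libraries.

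Libraries were scaled by the median ratio over 11115 rows above 30 in all 8 libraries. The test was limma 3.58.1 under R 4.3.3, with its trend and robust settings, for rows reaching 1 in 4 or more libraries. It ran on log2(value + 1), a scale that understates the change of low genes, with Benjamini-Hochberg adjustment at 0.05. The script was tested on simulated data. The 6 ratios were tested in Python 3.11.15. Alternatives were other scalings, pseudocounts and filters, limma without its options, and leaving out libraries. Gene numbers were matched to RefSeq for 32891 of 35720 rows. The members, ratios and gene lists were chosen with earlier results of these data known. Members are named throughout, and the 3 nearest genes by distance for each member with a mean level of at least 8. Other genes came from the lists, including some described after their values were seen. The result of 1 marker list is not reported here.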

Additional observations from a re-analysis of the deposited data

Results flagged for a closer look

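In 3 of the 24 groups of 4 values looked at (levels and ratios, by diet group), 1 library stood apart from the other 3 by a share of the group's range above Dixon's 95% critical value. Chance alone gives about 1 in 20 groups. The level of Gkn2 in HFD 26, at 17.85, lay above the other HFD libraries, the gap being 0.855 of the range. The log2 ratio of Gkn3 to Tff2 in HFD 26, at -7.12, lay below the other HFD libraries, with a gap of 0.843 of the range. The log2 ratio of Gkn1 to Muc5ac in control 15-17-18, at -0.40, lay below the other controls, with a gap of 0.834 of the range.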

How the results depend on the processing

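No member was called under any of the 18 alternatives. Gkn3 kept its direction in 18 of 18 (0.88 to 2.18), as did Tff3 (0.17 to 2.07). Settings that change only the filter or the limma options leave a member's difference as it was. The ratios Gkn3 to Tff2, Tff1 to Muc5ac and Gkn1 to Muc5ac kept their direction in 12 of 12, as did Gkn1 to Gkn2. For the first 3 the adjusted permutation p ran from 0.057 to 0.27. The deposited scale and the pseudocounts hardly move such ratios, so only leaving out libraries could change them. With fewer libraries fewer divisions are possible, which limits how low p can be. Rows called numbered 3, against 16 as deposited, 1 with the common total without the 20 most abundant rows, 0 to 4 with each library left out in turn, and 0 both without control 15-17-18 and 19 and without HFD 23 and control 15-17-18.

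Differences changed sign as follows, and the cause was not tested. Gkn1 was 0.74 as deposited, 0.72 by quantile normalization, 0.13 with the total without the top rows, and -0.27 to 0.15 with 1 library left out. Tff1 was 0.74, 0.29 and 0.13 in the same order, and -0.40 to 0.04 (0.0359 without HFD 27) with 1 library left out. Gkn2 ran from -0.14 to 0.24 and Tff2 from -0.175 to 0.39 with 1 library left out (-0.0294 without control 16). Without control 15-17-18 and 19, Gkn2 was -0.23, Tff2 -0.14, the Gkn2 to Tff1 ratio -0.0009 and the Tff2 to Muc6 ratio -0.33. Without HFD 23 and control 15-17-18, Tff2 was -0.23. The Tff2 to Muc6 ratio ran from -0.37 to 0.72 with 1 library left out (-0.008 without HFD 26). No paired analysis was possible because the groups share no replicate number. Tff3 rests on 0 to 48 estimated reads per library.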

Other observations

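The genes flanking both clusters gave values of their own. Next to the gastrokines, Antxr1 stood at 8.25 ± 0.18 in HFD and 8.15 ± 0.40 in control, and Bmp10 was listed at 0 in 3 libraries. Next to the trefoil factors, Abcg1, a sterol exporter gene, stood at 8.19 ± 0.47 and 7.61 ± 0.42, and Tmprss3 at 6.53 ± 0.25 and 6.36 ± 0.81, in HFD and control (SD, n = 4). Their differences did not pass by limma (adjusted p = 0.87, 0.72, 0.51 and 0.89 in the order named). Of 6 tested relatives with a BRICHOS domain 0 were called, with a median difference of 0.29, and of 4 other genes with a trefoil domain 0 were called, with a median of 0.52.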
